A study of Mus musculus with 4 samples.

Results

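The genes described here encode the extracellular matrix of the gut wall: collagen chains, laminin chains and a short list of other matrix proteins, chosen by gene symbol alone. A probe set, the array's measuring unit for a transcript, was a member if its only annotated symbol was a numbered collagen or laminin chain, or Fn1, Sparc, Dcn, Lum, Fbln1, Fbln2, Nid1, Nid2, Hspg2 or Fbn1. This gave 55 of 12393 named genes, made up of 36 collagen genes, 10 laminin genes and 9 others, on 88 of 22626 probe sets that were not controls. Fbn1 is not analysed here. The 29 genes with several probe sets were represented by the set with the highest mean deposited intensity over the 4 arrays.

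The study compared small intestine from 2 HNF4 null mice with that from 2 control mice, all 1 month old, with 1 Affymetrix array for each animal. HNF4 is a nuclear receptor of gut epithelium and liver. Each group had a female and a male. The nulls combined an HNF4 allele flanked by loxP sites with a minus allele, and carried a Cre recombinase driven by the villin promoter, which is active in intestinal epithelium. The female control paired the loxP allele with a wild-type one and carried the same Cre. The male control paired it with the minus allele and lacked Cre. Every animal thus carried a loxP allele. The controls differ from each other in sex, in the minus allele and in Cre at the same time, so these cannot be told apart between them. Neither the intestinal segment nor any separation of epithelium from the underlying wall is stated in the labels.

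Collagens are secreted trimers of coiled chains. Fibrillar collagens of types I, III and V build the fibres of the lamina propria and submucosa, and fibroblasts and smooth muscle cells are main sources of them. Basement membranes are thin sheets under epithelium and around vessels, muscle and nerve. They are woven from type IV collagen and from laminins, which are trimers of an alpha, a beta and a gamma chain, and are held together by nidogens and the proteoglycan perlecan. In the gut, epithelial and mesenchymal cells both supply parts of the basement membrane.

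Array medians of deposited intensity ran from 43.2 to 53.3 and were lowest in the male null. The Hnf4a probe set with the most signal read 1025 in the female null and 1136 in the male null, against 1141 in the female control and 731 in the male control. Because the sources used here do not state what was deleted, these values do not check the labels. Epithelial transcripts were present on every array, with villin, Vil1, at 1343 in the female null and 1971 in the male null, against 2335 in the female control and 2021 in the male control. On 6 Y-linked probe sets, whose transcripts females lack, the female arrays read from −2.23 to 34.4. Matrix values at or below 34.4 are therefore not shown to lie above background.

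Of the 55 genes, 39 passed the brightness filter, which removed the 30% of probe sets with the lowest mean over the 4 arrays. The other 16 had mean intensities of 8.61 to 26.7 and were not tested. They were 11 collagens (Col4a3, Col5a3, Col8a1, Col9a3, Col10a1, Col11a1, Col11a2, Col17a1, Col19a1, Col22a1 and Col26a1), 3 laminins (Lama1, Lama3 and Lamb2), Nid2 and Fbln2. Nearest the filter on its upper side were Lamc3 and Col14a1, with mean levels of 5.42 and 5.49 on the scale of log2(intensity + 16), and nearest below it were Col9a3 and Col10a1, both at 5.39. Of the 39 tested, 29 lay above 34.4 on every array, 9 (Col5a2, Col13a1, Col14a1, Col15a1, Lama4, Lamc1, Lamc3, Lum and Nid1) did so on some arrays, and Lama2 on none.

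Values given per array are deposited intensities on a linear scale, and differences are null minus control on the normalized log2(intensity + 16) scale. The question for these genes is whether matrix transcripts differ when HNF4 is targeted in the epithelium beside the matrix. No matrix gene passed the threshold of an adjusted p of 0.05 in limma, a linear model fitted to all 15838 probe sets that passed the filter, in which 0.0126% of probe sets and 0.021% of genes were called. None of the 39 had an unadjusted p under 0.05 either, where 3.23% of all genes and 3.03% of all probe sets tested did, and the smallest unadjusted p among them was 0.0616, for Col18a1 (adjusted p of 1 in limma). No member differed by as much as 2-fold between the group means, and the 95% interval of each of the 39 differences included 0. The intervals, which are not adjusted for the number of probe sets, reached a median of 0.64 to either side on the log2 scale. Differences smaller than that were thus mostly not detectable with 2 animals a group. The adjusted threshold is stricter, and larger differences could also go uncalled, as did that of the protease gene Mmp7, at 1.22.

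Most differences lay above 0. Null minus control was above 0 for 30 of the 39 genes (76.9%, against 50.3% of all genes tested), with a median of 0.15 against 0.0014 over all genes tested. The median was 0.24 in the female pair (female null minus female control) and 0.02 in the male pair (male null minus male control). This gap depended on the processing. The female and male medians were 0.168 and 0.063 with arrays scaled to a common median, and 0.096 and 0.111 with no filter on dim probe sets. The median of null minus control was 0.07 without the male null and likewise 0.07 without the female null. Both nulls lay above both controls for 8 genes (20.5%, against 14.4% of all genes), namely Col1a2, Col6a2, Col16a1, Col18a1, Col25a1, Dcn, Fn1 and Lamc3. The place of Lamc3 in this count rests on the male null, its highest array, without which it did not pass the brightness filter. On the deposited values, before normalization, the groups of Col1a2, Col6a2, Dcn and Fn1 overlapped. Both lay below both controls for 2 genes, Lamb3 and Lama2 (5.13%, against 15.2% of all genes). The groups overlapped for the other 29 genes (74.4%, against 70.4% of all genes). The female and male pairs had opposite signs for 24 genes (61.5%, against 51.7% of all genes).

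**Figure D1:**
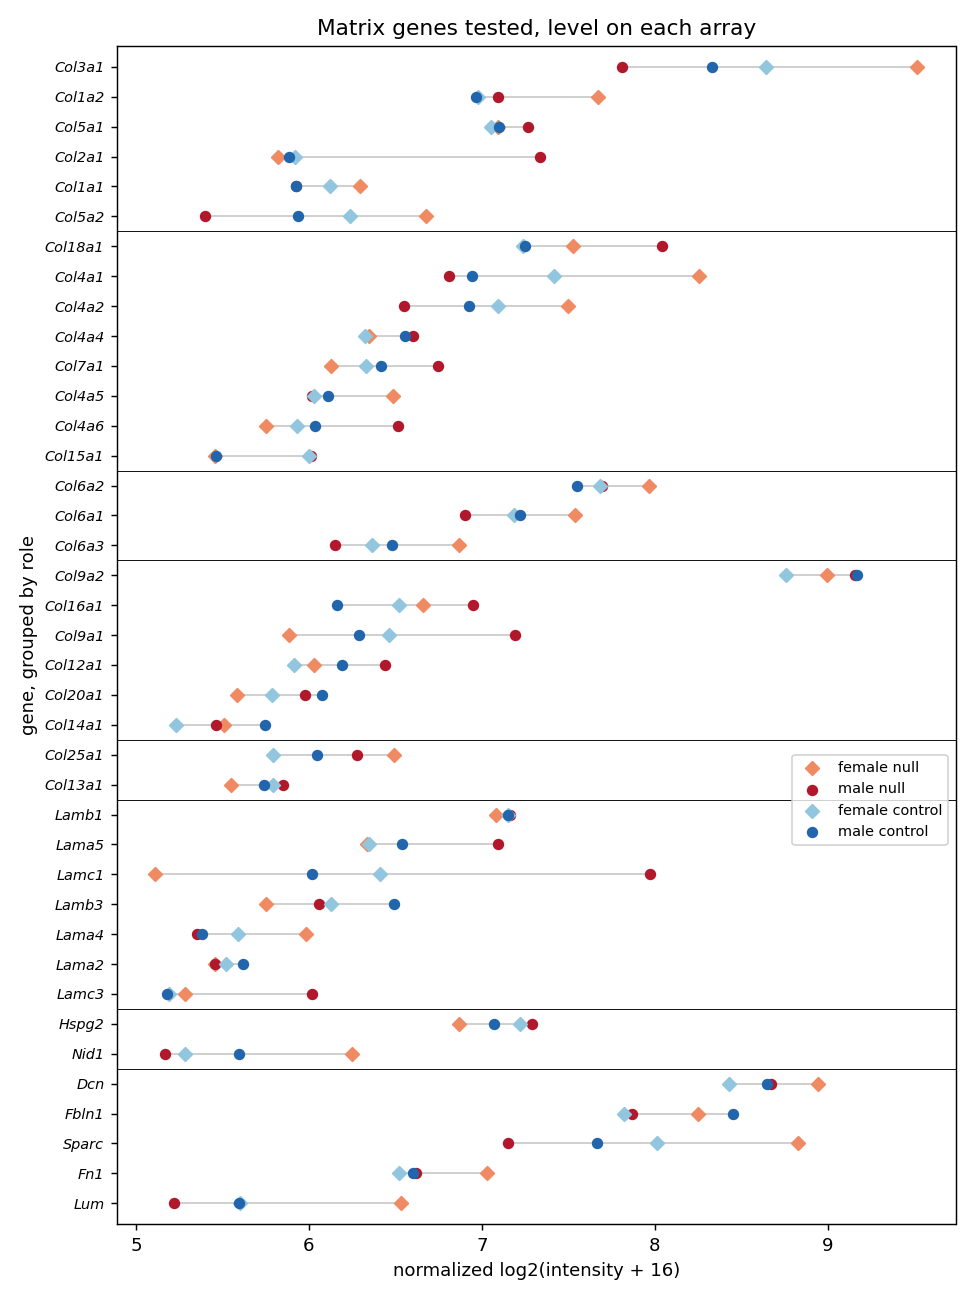
Level of each of the 39 matrix genes tested on each array, as normalized log2(intensity + 16), with genes grouped by role and divided by horizontal lines; diamonds are females, circles males, orange and red null, blue control. For Col3a1, Col5a2, Col4a1, Col4a2, Sparc and Lum the female null is the highest array and the male null the lowest, with the controls between them.

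**Figure D2:**
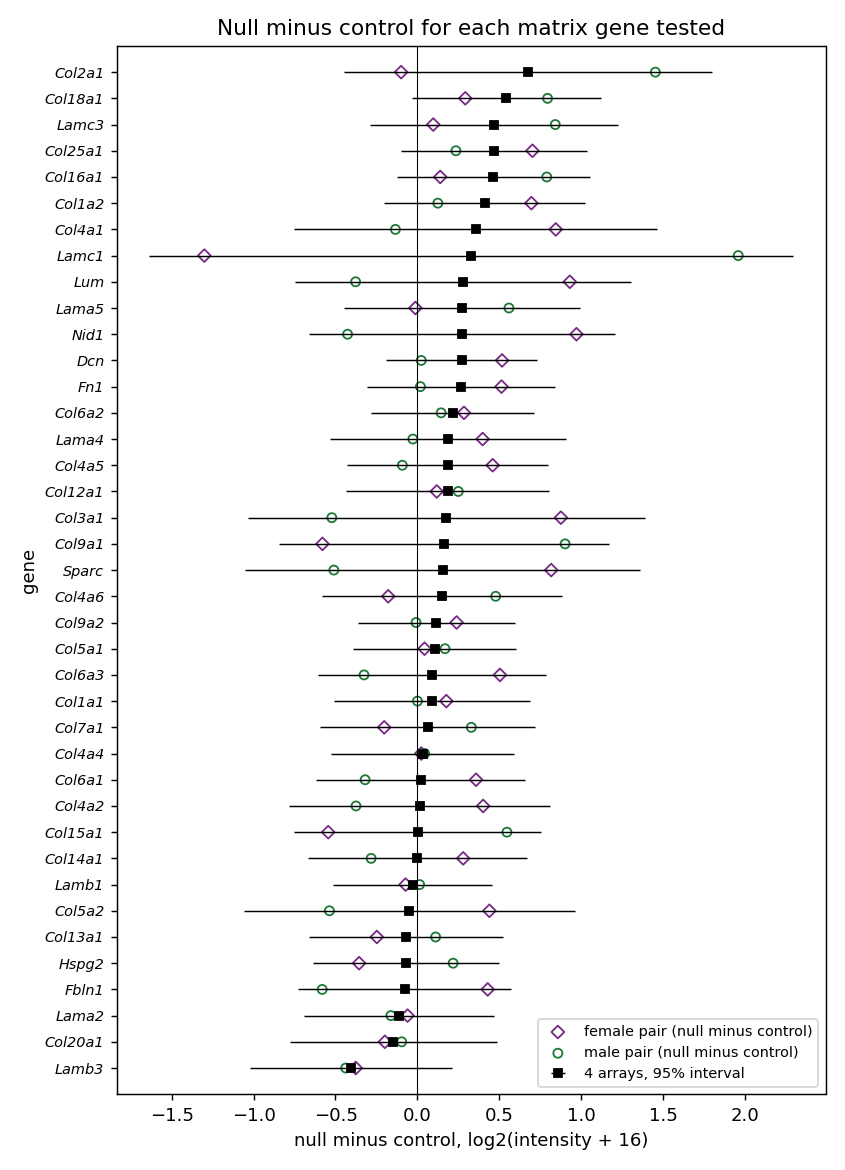
Null minus control for each matrix gene tested, in log2 units; black squares are the difference over 4 arrays with its 95% interval from limma, open diamonds the female pair and open circles the male pair. Every interval crosses 0, and 24 of the 39 genes have pair differences of opposite sign.

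Among fibrillar collagens, 5 of 6 differences were above 0 and none passed the threshold. Their median was 0.14, with 0.31 in the female pair and 0.06 in the male pair. Col3a1, the chain of type III collagen found in pliable tissues, read 712 in the female null and 192 in the male null, against 396 in the female control and 307 in the male control. The female null was the highest array and the male null the lowest, so the groups overlapped, and the difference of 0.18 had a standard error (SE) of 0.51. It was 1.02 without the male null and −0.69 without the female null, so its sign rested on which null was counted. Col5a2, a type V chain that regulates fibril width, followed the same order, at 92.6 in the female null and 22.0 in the male null, against 60.9 in the female control and 45.7 in the male control.

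The chains of type I collagen, the bulk protein of connective tissue, gave smaller values. Col1a2 read 198 in the female null and 109 in the male null, against 112 in the female control and 110.1 in the male control. Only the female null stood clearly apart, although the male null was also just above both controls after normalization. The difference was 0.41 (SE 0.26), with 0.70 in the female pair and 0.12 in the male pair (adjusted p of 1 in limma). A further Col1a2 probe set gave 0.75 and −0.39 in those pairs. Col1a1 read 67.7 in the female null and 39.4 in the male null, against 55.0 in the female control and 45.3 in the male control, with overlapping groups and a difference of 0.09 (SE 0.25). Its further probe set gave 0.55 over the 4 arrays.

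Col5a1, the other type V chain, was nearly level at 129 in the female null and 126 in the male null, against 119 in the female control and 122 in the male control. Col2a1, the collagen of cartilage, had 1 high array, with 44.3 in the female null and 133 in the male null, against 45.6 in the female control and 43.7 in the male control. The female null lay at the level of the controls. The difference of 0.68 (SE 0.47) was the highest among the 39 genes tested. It was −0.08 without the male null and 1.44 without the female null.

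Type IV collagen forms the network of every basement membrane, and its chains Col4a1 and Col4a2 are coiled into the same trimer. Their genes are neighbours on mouse chromosome 8 and are read in opposite directions from a shared start region. RefSeq promoter windows of 300 bases (250 before the start and 50 after, assembly GRCm38.p6) were at hand for 37 of the 55 genes, and those of Col4a1 and Col4a2 share 78 bases. They are shown for this shared stretch, whose part in the values was not tested. Capitals mark the shared bases, which read as reverse complements since the genes lie on opposite strands. The Col4a1 window is chr8:11312777-11313076 on the minus strand and the Col4a2 window chr8:11312555-11312854 on the plus strand.
Col4a1: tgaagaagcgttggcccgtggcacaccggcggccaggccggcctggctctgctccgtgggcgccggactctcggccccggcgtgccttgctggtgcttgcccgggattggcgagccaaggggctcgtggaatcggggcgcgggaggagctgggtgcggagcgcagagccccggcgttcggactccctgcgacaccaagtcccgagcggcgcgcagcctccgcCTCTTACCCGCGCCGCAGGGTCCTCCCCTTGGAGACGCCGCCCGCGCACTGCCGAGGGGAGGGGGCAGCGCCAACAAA
Col4a2: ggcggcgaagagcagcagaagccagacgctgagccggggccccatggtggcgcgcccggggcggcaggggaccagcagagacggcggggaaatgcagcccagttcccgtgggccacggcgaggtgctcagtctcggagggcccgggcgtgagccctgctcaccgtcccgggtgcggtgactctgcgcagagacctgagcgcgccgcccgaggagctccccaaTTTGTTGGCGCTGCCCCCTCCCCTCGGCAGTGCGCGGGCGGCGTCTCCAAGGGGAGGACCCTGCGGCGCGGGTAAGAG

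Col4a1 read 301 in the female null and 86.3 in the male null, against 159.8 in the female control and 108 in the male control. Col4a2 read 174 in the female null and 69.6 in the male null, against 124 in the female control and 107 in the male control. Both had the same order of arrays, female null, female control, male control and male null from high to low, and both groups overlapped. The order was not particular to this pair, since Col3a1, Col5a2, Sparc, Lum and Lama4 had it too. The differences were 0.35 (SE 0.46) for Col4a1 and 0.01 (SE 0.33) for Col4a2, with an adjusted p of 1 in limma. In the female pair they were 0.84 and 0.40, and in the male pair −0.13 and −0.38. The Col4a1 value was 1.07 without the male null and −0.37 without the female null. A further Col4a1 probe set gave 0.57 in the female pair and 0.01 in the male pair. On it the male null lay just above the male control after normalization, so it did not repeat the full order.

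The minor type IV chains, which are restricted to fewer basement membranes, did not share that full order. Col4a4 was level, with 70.7 in the female null and 72.5 in the male null, against 65.6 in the female control and 78.8 in the male control. Col4a5 and Col4a6, neighbours on the X chromosome, had opposite orders of the null animals. Col4a5 read 79.3 in the female null and 43.0 in the male null, against 50.4 in the female control and 53.7 in the male control, highest in the female null. Col4a6 read 41.5 in the female null and 67.5 in the male null, against 45.9 in the female control and 50.1 in the male control, highest in the male null, and its further probe set had the same sign in each pair.

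Col18a1, whose chain sits in basement membranes and releases the fragment endostatin, had the smallest p of the 39 genes tested. It read 178 in the female null and 231 in the male null, against 138 in the female control and 136 in the male control. Both nulls were above both controls, and the controls were close together. The difference was 0.54 (SE 0.24, 95% interval −0.04 to 1.12; 0.29 without the male null), with 0.29 in the female pair and 0.79 in the male pair. A further Col18a1 probe set read 91.7 in the female null and 45.3 in the male null, against 63.6 in the female control and 70.2 in the male control, where the groups overlapped and the difference was 0.01. The 2 probe sets thus gave 0.29 and 0.38 in the female pair but 0.79 and −0.35 in the male pair. Col7a1, the anchoring fibril collagen, and Col15a1, a relative of Col18a1 in vessel and muscle basement membranes, both had overlapping groups, at 0.06 (SE 0.27) and 0.00063 (SE 0.31). All 8 tested members of this class were above 0, with a median of 0.11. The signs of the 2 pairs matched in Col18a1 and Col4a4.

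Laminin chains had a median of 0.18 over 7 genes, 4 of them above 0, with −0.06 in the female pair and 0.01 in the male pair. Lamb3, the beta chain of the epithelial laminin that anchors cells through hemidesmosomes, was furthest below 0 among the 39 genes tested. It read 41.4 in the female null and 44.7 in the male null, against 55.1 in the female control and 75.0 in the male control. Both nulls were below both controls, and the difference was −0.41 (SE 0.26), with −0.38 in the female pair and −0.44 in the male pair (adjusted p of 1 in limma). Its partner chain Lama3 was among the genes not tested, at 23.4 in the female null and 20.3 in the male null, against 25.5 in the female control and 22.1 in the male control. These values overlapped and are not shown to lie above background.

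Lama5, the main alpha chain under mature gut epithelium, read 70.0 in the female null and 109 in the male null, against 67.0 in the female control and 77.7 in the male control. The female null lay close to the controls and the male null was high, and a further Lama5 probe set gave the same pattern, with −0.0005 and 0.47 in the female and male pairs against −0.01 and 0.56. Lamb1, a widely used beta chain, was level at 127 in the female null and 116 in the male null, against 129 in the female control and 127 in the male control. Lama4, an alpha chain of vessel basement membranes, read 51.4 in the female null and 20.7 in the male null, against 32.6 in the female control and 26.0 in the male control, highest in the female null.

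The gamma chains gave the least regular values. Lamc1, the gamma chain of most laminins, read 21.4 in the female null and 219 in the male null, against 70.8 in the female control and 49.3 in the male control. The nulls lay on opposite sides of both controls, −2.86 apart (female null minus male null, log2), so the difference of 0.33 carried an SE of 0.82. Its other probe set read 73.1 in the female null and 20.2 in the male null, against 56.6 in the female control and 52.8 in the male control, which is the opposite order, with the male null lowest. Lamc1 therefore has no settled direction in these data. Lamc3 read 26.0 in the female null and 43.0 in the male null, against 20.9 in the female control and 20.6 in the male control, with only the male null above 34.4, and its difference was 0.47 (SE 0.32). Without the male null it did not pass the filter. Lama2, the alpha chain of muscle laminin, differed by −0.11.

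Nid1, a nidogen that links laminin to type IV collagen, read 65.0 in the female null and 16.2 in the male null, against 23.4 in the female control and 32.8 in the male control. The female null was high and the male null low. Nid2, the other nidogen, read 29.6 in the female null and 34.5 in the male null, against 14.1 in the female control and 11.3 in the male control. Both Nid2 nulls were above both controls, but the gene did not pass the filter and at most 1 array exceeded 34.4. Hspg2, which encodes perlecan, read 107 in the female null and 128 in the male null, against 137 in the female control and 119 in the male control, with overlapping groups and a difference of −0.07 (SE 0.24).

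Type VI collagen forms beaded filaments around cells, and its 3 tested chains gave differences of 0.02, 0.21 and 0.09 for Col6a1, Col6a2 and Col6a3. Col6a1 read 179.5 in the female null and 93.5 in the male null, against 132 in the female control and 133 in the male control. Col6a3 read 107 in the female null and 48.6 in the male null, against 68.2 in the female control and 73.9 in the male control. In both genes the female null was highest and the male null lowest. Col6a2, the neighbour of Col6a1 on chromosome 10, read 244 in the female null and 175 in the male null, against 194 in the female control and 172 in the male control. There both nulls were above both controls by a small margin after normalization, and a further probe set of Col6a2 gave 0.41 against 0.21 (SE 0.21).

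Collagens that decorate fibrils had a median of 0.14 over 6 genes, 4 of them above 0. Col9a2, a type IX chain known from cartilage, read 499 in the female null and 549 in the male null, against 429.9 in the female control and 559 in the male control. The groups overlapped, with a difference of 0.12 (SE 0.20). Col9a1, its partner chain, did not follow it, at 46.8 in the female null and 119 in the male null, against 73.8 in the female control and 62.9 in the male control. The male null was highest and the female null lowest, and the Col9a1 probe sets had the same sign in each pair, at −0.58 and −0.43 in the female pair and 0.90 and 0.64 in the male pair.

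Col16a1, a collagen of smooth muscle and fibroblast matrix, read 91.3 in the female null and 97.2 in the male null, against 77.3 in the female control and 56.4 in the male control. Both nulls were above both controls, and the difference was 0.46 (SE 0.25), with 0.14 in the female pair and 0.79 in the male pair. Col12a1, Col14a1 and Col20a1 had overlapping groups, at 0.18, −0.0019 and −0.15. Of the transmembrane collagens, Col25a1, known from neurons, read 79.5 in the female null and 54.6 in the male null, against 40.0 in the female control and 50.4 in the male control. Both nulls were higher, with a difference of 0.47 (SE 0.24, adjusted p of 1 in limma). Col13a1 differed by −0.07 (SE 0.25).

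The glycoproteins and small proteoglycans gave a median of 0.27 over 5 genes, 4 of them above 0. In the female pair all 5 were above 0 with a median of 0.52, and the median of the male pair was −0.38. Sparc, a collagen-binding protein of remodelling matrix, read 442 in the female null and 115 in the male null, against 248 in the female control and 187 in the male control. Its further probe set read 378 in the female null and 134 in the male null, against 155 in the female control and 140.3 in the male control. The female null was highest on both sets. The male null was lowest on the first set, and on the further one the remaining 3 arrays lay close together. The difference of Sparc was 0.15 (SE 0.50), 0.97 without the male null and −0.69 without the female null.

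Lum, which encodes lumican, a proteoglycan that spaces collagen fibrils, read 82.4 in the female null and 17.4 in the male null, against 33.1 in the female control and 32.9 in the male control. The female null was again highest and the male null lowest, with the controls level. Dcn, its neighbour on chromosome 10, encodes decorin, which has a like role. Dcn read 483 in the female null and 373 in the male null, against 340.4 in the female control and 387 in the male control. Both Dcn nulls were above both controls after normalization, and the difference was 0.27 (SE 0.19). The deposited Dcn values overlap, since the male null lay below the male control before normalization.

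Fn1, which encodes fibronectin, read 122 in the female null and 74.0 in the male null, against 77.3 in the female control and 81.9 in the male control. Its nulls were likewise both above the controls after normalization only, with a difference of 0.27 (SE 0.24), 0.51 in the female pair and 0.02 in the male pair. Fbln1, an elastic fibre glycoprotein, read 300.1 in the female null and 201 in the male null, against 216 in the female control and 334 in the male control, highest in the male control, with a difference of −0.08 (SE 0.27).

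Some matrix genes lay further apart between the null animals than between the group means, a pattern noticed after the values were seen. The nulls were at least 2-fold apart, 1 or more on the log2 scale, for 9 of 39 matrix genes (23.1%, against 6.67% of all genes tested). For 0 of the 39 genes were the controls that far apart (1.37% of all genes). Of the 9 genes, Col5a2, Lum, Nid1 and Lamc1 had their lower null below 34.4, not shown to lie above background. In 11 genes (28.2%, against 14.5% of all genes) the female null was the highest array and the male null the lowest: Col3a1, Col4a1, Col4a2, Col4a5, Col5a2, Col6a1, Col6a3, Lama4, Lum, Nid1 and Sparc. In these 11 the nulls were 0.47 to 1.71 apart, with a median of 1.08, while female control minus male control had a median of 0.17. The reverse order, male null highest and female null lowest, held for 10 genes (25.6%, against 14% of all genes): Col2a1, Col4a6, Col7a1, Col9a1, Col13a1, Col15a1, Hspg2, Lama5, Lamb1 and Lamc1. The 10 genes had a median gap of −0.69, from −2.86 for Lamc1 to −0.09 for Lamb1. Sex differed between the nulls, and with 1 animal of each sex a group, sex, animal and array cannot be told apart.

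**Figure D3:**
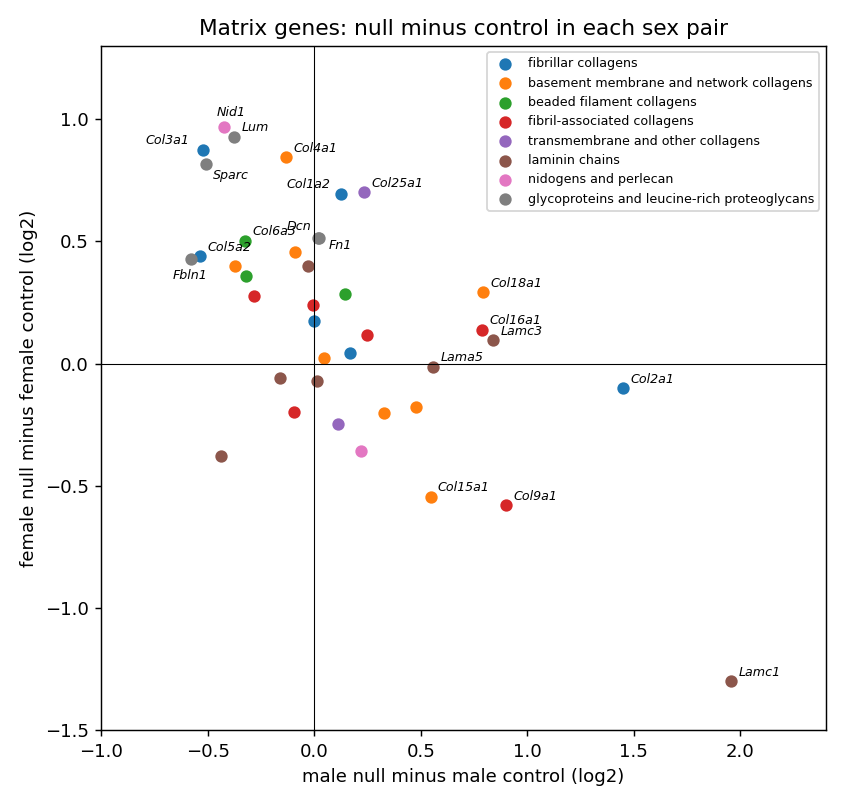
Null minus control in the male pair (horizontal axis) and in the female pair (vertical axis) for each matrix gene tested, in log2 units and coloured by role. Col3a1, Sparc, Lum and Nid1 lie at the upper left, above 0 in females and below 0 in males, while Lamc1, Col9a1 and Col2a1 lie at the lower right.

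The promoter windows of Col3a1 and Col1a2 are shown as those of chains of the main fibre collagens, types III and I. In the male pair these genes stood at −0.52 for Col3a1 and 0.12 for Col1a2, but the further Col1a2 probe set gave −0.39 there. Capitals mark matches to the letters of promoter motifs on either strand, at any distance from the start. The TATA box was searched as TATAAA. The CCAAT box was searched by those letters. The GC box was searched as GGGCGG. The Col3a1 window, chr1:45311288-45311587 on the plus strand, held 1 TATAAA. The Col1a2 window, chr6:4505368-4505667 on the plus strand, held 2 CCAAT and 2 GGGCGG.
Col3a1: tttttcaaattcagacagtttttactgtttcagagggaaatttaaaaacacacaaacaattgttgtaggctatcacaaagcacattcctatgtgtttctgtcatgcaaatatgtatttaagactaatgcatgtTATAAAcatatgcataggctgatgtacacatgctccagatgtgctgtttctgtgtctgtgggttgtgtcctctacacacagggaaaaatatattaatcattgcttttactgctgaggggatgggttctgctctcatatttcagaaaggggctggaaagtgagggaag
Col1a2: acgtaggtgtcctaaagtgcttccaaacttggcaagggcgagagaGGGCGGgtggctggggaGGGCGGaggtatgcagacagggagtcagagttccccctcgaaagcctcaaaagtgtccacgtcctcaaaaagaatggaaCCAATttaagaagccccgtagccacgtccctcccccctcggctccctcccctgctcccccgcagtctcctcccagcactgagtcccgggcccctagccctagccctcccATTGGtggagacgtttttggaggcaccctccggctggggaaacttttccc

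TATAAA was found in 5 of the 42 windows of matrix genes (11.9%) and in 13.6% of 32851 windows of all genes, CCAAT in 33.3% and 37.4%, and GGGCGG in 57.1% and 35.7%. The letters CAAAGTCCA, a strong HNF4 binding site, were in 0 of the 42 windows and in 0.475% of all windows. These are matches of letters and say nothing of binding.

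Genes with more than 1 probe set give a check on single values. A pair of probe sets passed the filter for 13 genes. In the female pair both sets had the same sign for 12 of the 13, the exception being Lamc1. In the male pair they had the same sign for 7 of the 13, and over the 4 arrays for 10. Col1a1, for example, gave 0.18 and 0.33 in the female pair against 0.0001 and 0.77 in the male pair. The male pair holds the male null, the array with the lowest median. Its part in this was not tested.

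**Figure D4:**
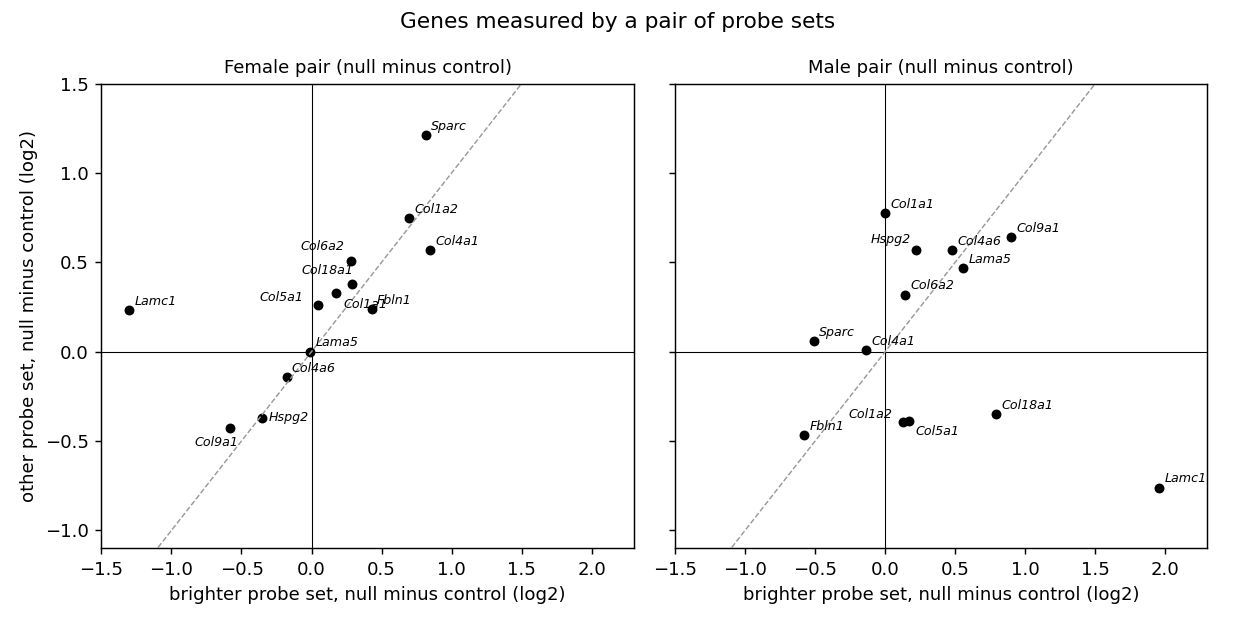
Null minus control on the brighter probe set (horizontal axis) and on the other probe set (vertical axis) of 13 matrix genes, in log2 units, for the female pair (left) and the male pair (right); the dashed line marks equal values. In females 12 genes lie in quadrants of equal sign, and in males 7.

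Markers of the cells that make matrix also differed between arrays. In bulk tissue, fewer cells of a type and less RNA per cell cannot be told apart. The smooth muscle list, with 11 of 12 measured genes tested, had summed deposited intensities of 4925 in the female null and 3299 in the male null, against 3268 in the female control and 3598 in the male control. Fibroblast markers that are not matrix genes, 7 of 8 tested, summed to 894 in the female null and 442 in the male null, against 675 in the female control and 664 in the male control. Both lists were highest in the female null, and the fibroblast list was lowest in the male null, as for Col3a1 and Sparc. These sums are not normalized, and the array median was lowest in the male null. By median deviation after normalization, the female null was again highest in both lists, at 0.51 and 0.21. The male null was again lowest for the fibroblast list, at −0.34. Among the fibroblast markers, Vim read 292 in the female null and 98.0 in the male null, against 225 in the female control and 164 in the male control, and Tcf21 read 207 in the female null and 76.1 in the male null, against 112 in the female control and 159 in the male control. No marker of either list was at 0 on any array, and the dimmest were Cd34 and Synpo2, which did not pass the filter. The part of these cells in the matrix values was not tested.

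Endothelial markers summed to 748 in the female null and 632 in the male null, against 565 in the female control and 649 in the male control. This is the order of arrays of the smooth muscle sums, with the female null highest. By median deviation from the mean of the 4 arrays after normalization, the endothelial list was highest in the male control, at 0.10, with the female null at 0.02. The epithelial and pancreatic lists were arranged differently. Epithelial markers summed to 30831 in the female null and 34872 in the male null, against 37488 in the female control and 34935 in the male control, so that the female null was the lowest. Both nulls were below both controls for 7 of the 11 epithelial markers, against 15.2% of all genes, and none passed the threshold. Acta2, the smooth muscle actin, did not follow its list, at 1448 in the female null and 1564 in the male null, against 1520.4 in the female control and 1387 in the male control. Myl9, a myosin light chain of the same cells, read 845 in the female null and 403 in the male null, against 351 in the female control and 534 in the male control, highest in the female null. Pancreatic acinar markers summed to 567 in the female null and 903 in the male null, against 610 in the female control and 516 in the male control, highest in the male null. The leukocyte, enteric nerve and mesothelium lists had median differences of −0.07, −0.06 and 0.26 over 6, 3 and 2 genes.

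**Figure D5:**
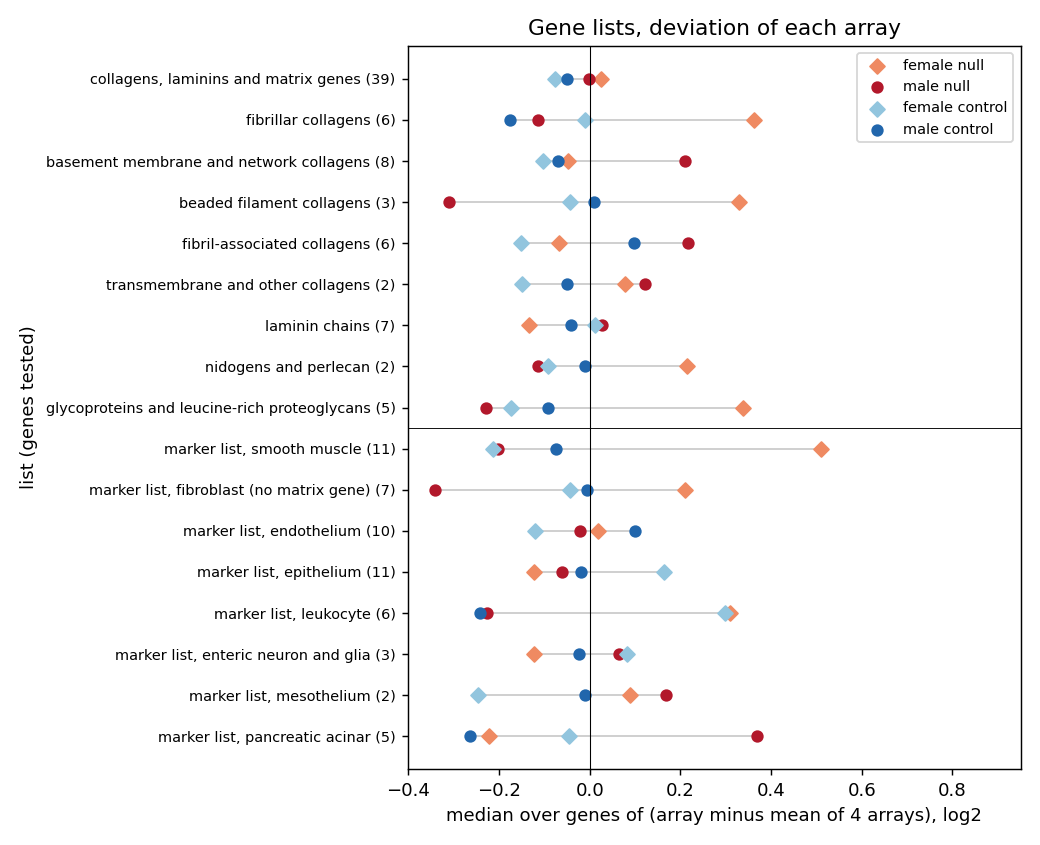
Deviation of each array from the mean of the 4 arrays, as the median over the genes of a list in log2 units, for matrix genes and their classes (above the line) and for marker lists (below it); the number of genes tested is in brackets, diamonds are females, circles males, orange and red null, blue control. Among matrix classes, fibrillar and type VI (beaded filament) collagens, nidogens and perlecan, and glycoproteins have the female null to the right of the other 3 arrays. Of the marker lists, smooth muscle, fibroblast and leukocyte do so. For leukocytes (0.31, against 0.30 in the female control) and for all matrix genes together the margin is small.

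Genes that make, bind or cut matrix were counted from lists of their own. None of 73 such genes tested passed the threshold in limma, where 0.0126% of all probe sets did, and 4 (5.48%, against 3.23% of all genes tested) had an unadjusted p under 0.05. Collagen biosynthesis, the enzymes and chaperones that modify and cross-link collagen, had 10 of 17 genes above 0 and a median of 0.01. Its smallest p values were those of the procollagen processing enhancers Pcolce2 at −0.53 (SE 0.26) and Pcolce at 0.43 (SE 0.25), which lay on opposite sides of 0. Matrix receptors, which include integrins, syndecans and dystroglycan, had 8 of 16 above 0 and a median of 0.005. Sdc4 stood at 0.59 (SE 0.26) and Sdc1, the main syndecan of epithelium, at −0.51 (SE 0.26).

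Matrix proteases and their inhibitors had 7 of 8 genes above 0 and a median of 0.26. Mmp7, an epithelial protease known from Paneth cells in the mouse, read 1179.6 in the female null and 1383 in the male null, against 459 in the female control and 659 in the male control. Both nulls exceeded both controls, with a difference of 1.22 (SE 0.21), an adjusted p of 1 in limma, and of 0.0127 in limma with sex as a block, where it was the only gene of these lists to pass. Mmp9, a gelatinase of leukocytes, read 98.5 in the female null and 89.8 in the male null, against 67.6 in the female control and 51.4 in the male control, with a difference of 0.59 (SE 0.23).

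Further matrix proteins had 10 of 21 genes above 0 and a median of −0.0007. Their smallest p values belonged to genes below 0. Fmod, a proteoglycan of collagen fibrils related to lumican, read 26.0 in the female null and 16.1 in the male null, against 46.6 in the female control and 52.7 in the male control, and Thbs2, a matrix glycoprotein, read 23.6 in the female null and 13.1 in the male null, against 37.6 in the female control and 41.4 in the male control. Both nulls were below both controls in these genes, in contrast to Dcn, at −0.79 (SE 0.24) and −0.66 (SE 0.25). The nulls of both genes are not shown to lie above background. TGF-beta ligands, receptors and targets, which drive collagen synthesis in many tissues, had 7 of 11 genes above 0 and a median of 0.06, with Smad3 at 0.28 (SE 0.23) and Tgfbr3 at −0.23 (SE 0.26).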

How the data were processed

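RNA from the small intestine of 4 mice was measured on 1 Affymetrix array each. The authors deposited 1 linear intensity for each of 22690 probe sets and array. What software and scaling produced them is not given in the sources used here. Depth does not apply to arrays, whose number limits the precision. After 64 control probe sets were left out, intensities were quantile normalized between arrays, values below 0 were set to 0, and log2(intensity + 16) was taken. Probe sets in the lowest 30% of mean level were removed. The remaining 15838 were fitted in limma 3.58.1 (R 4.3.3) with a trended prior, no covariate and 2 residual degrees of freedom, two-sided, with Benjamini-Hochberg adjustment over all of them. The script was tested on simulated data. A difference is null minus control on this log2 scale, which understates changes of dim genes.

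Probe sets were named through the platform's gene table: 20380 had 1 symbol, 691 several and 1555 none. Groups and sexes came from the labels. Nothing says how the animals were related.

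The members and gene lists were chosen with earlier results of these data known. Values per array are given for the brightest genes, those of lowest p whose pairs share a sign, those whose pairs differ most, and those at the filter, and for the 2 smallest p values of each pathway list. Other genes given per array were added after their values were seen. Alternatives were other normalizations, pseudocounts, filters and priors, sex as a block and each animal left out. Another was the mean over those probe sets of a gene that passed the filter.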

Additional observations from a re-analysis of the deposited data

Results flagged for a closer look

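The female pair (female null minus female control) and the male pair (male null minus male control) lay on opposite sides of 0 for the results given here, as log2 differences. Each pair holds 1 null and 1 control, and the difference between the pairs was not tested. The controls of the pairs differ in the minus allele and in Cre as well as in sex, so these cannot be told apart in it. Groups of 2 animals are too small for a test of outlying arrays.

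The female pair exceeded the male pair by 1.40 for Col3a1, by 1.33 for Sparc, by 1.01 for Fbln1 and by 0.98 for Col4a1. It exceeded it by 0.68 for Col6a1, by 0.56 for Col14a1 and by 0.25 for Col9a2. The median of the glycoproteins and small proteoglycans was 0.89 higher in the female pair, that of type VI collagens 0.68 higher and that of nidogen and perlecan 0.41 higher.

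Female minus male was −3.26 for Lamc1, −1.55 for Col2a1 and −1.48 for Col9a1, and −0.073 for the median of the laminin chains. The Lamc1 value was −1.30 in the female pair and 1.96 in the male pair on the brighter probe set, and 0.23 and −0.76 on the other.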

How the results depend on the processing

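No matrix gene was called in limma under any alternative run. Over all probe sets the 2 calls became 29 with sex as a block and 1 with no intensity trend, and from 0 to 35 with 1 animal left out (0 without the male control, 3 without the female control, 10 without the female null and 35 without the male null). The pathway lists had 0 calls, and 1, Mmp7, with sex as a block. With sex as a block 1 matrix gene, Col18a1, had an unadjusted p under 0.05 (2.56% of those tested, against 5.08% of all probe sets in that fit), with a smallest adjusted p of 0.903 among members in limma. The median difference of matrix genes was 0.15. It ran from 0.09 with no normalization to 0.18 with the mean over those probe sets of a gene that passed the filter. With 1 animal left out it ran from 0.070 to 0.143. Groups did not overlap for 10 matrix genes (25.6%, against 29.6% of all genes). There were 7 with no normalization (17.9%, against 28.2% of all genes), 8 with the dimmest 50% left out (26.7%, against 30.4%) and 18 with no filter, where more genes enter (32.7%, against 30.1%). With 1 animal left out fewer arrays can overlap. There were 33 without the male null (82.5%, against 70.9% of all genes) and 34 without the female null (85%, against 77.3%). There were 15 without the female control (38.5%, against 55.4%) and 17 without the male control (42.5%, against 55.4%). A lone animal was assumed to vary like the other group.

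Of 244 values of 19 named matrix genes under alternatives, 228 kept their sign and 16 did not. The sign changed under at least 1 alternative for 10 of the 19 genes. Other filters, the other prior and sex as a block leave a gene's difference unchanged, so those values could not change sign. The mean over probe sets likewise leaves unchanged a gene with only 1 set that passed the filter. Calls with that mean were not run. The groups share no replicate number, so animals were paired by sex alone, and the fit with sex as a block is that paired analysis. Among the controls, sex goes together with the minus allele and Cre in that fit.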
